A study of Mus musculus with 6 samples.

Results

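The AP-1 and EGR immediate early factors are transcription factors whose genes are among the first to be transcribed when a cell is stimulated. Of the 16254 genes listed by symbol in the count table, 10 were taken by name: the FOS genes Fos, Fosb and Fosl2, the JUN genes Jun, Junb and Jund, the related stress factor Atf3, and the EGR genes Egr1, Egr2 and Egr3. All 10 were present, and all 10 passed the filter on low counts that left 13498 genes for testing. They were measured by poly(A) RNA sequencing in eosinophils grown from C57BL/6 mouse bone marrow with FLT3 ligand and stem cell factor and then IL-5. The 3 EV-treated cultures received extracellular vesicles from activated Th2 cells, at 5e+09 EVs per ml, for 24 h. The 3 sham-treated cultures received unconditioned medium taken through the same isolation, for the same time. Both groups are therefore IL-5-grown cells from C57BL/6 marrow, and the comparison asks how transcripts of the cultures differed after activated Th2 cell EVs. The paper lists no IL-5 in the medium during the EV treatment. It reports that activated Th2 cell EVs raised eosinophil survival at 24 h over untreated cultures. The groups may therefore differ in their share of dying cells, and whether this had a part in the values below was not tested.

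AP-1 is a dimer of basic leucine zipper proteins. FOS proteins cannot pair with each other and need a JUN partner, whereas JUN proteins can also pair among themselves, and the dimers bind short palindromic DNA sites known as TRE and CRE sites. EGR proteins are zinc finger factors that bind GC-rich sites. Growth factors and cytokines switch on both families through MAP kinases, which phosphorylate the ternary complex factors that sit with SRF on serum response elements, and the resulting mRNAs are short-lived. In granulocytes these factors lie downstream of cytokine and adhesion receptors, and the first wave of an immediate early response is known to pass within hours of a stimulus, well before the 24 h at which these cultures were taken.

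Sequences before the start site are given for 4 members, of which Fos and Jun fell and Junb and Egr2 rose with EV treatment. The windows are RefSeq's, on GRCm38.p6, and run from 250 bases before the start to 50 bases after it on the gene's own strand. RefSeq windows were at hand for 8 of the 10 members. The Jun window lies at chr4:95052173-95052472 on the minus strand, the Fos window at chr12:85473640-85473939 on the plus strand, the Junb window at chr8:84978699-84978998 on the minus strand, and the Egr2 window, the third of 5 for that gene, at chr10:67537619-67537918 on the plus strand. Capitals mark the motifs that were searched and found.
Jun: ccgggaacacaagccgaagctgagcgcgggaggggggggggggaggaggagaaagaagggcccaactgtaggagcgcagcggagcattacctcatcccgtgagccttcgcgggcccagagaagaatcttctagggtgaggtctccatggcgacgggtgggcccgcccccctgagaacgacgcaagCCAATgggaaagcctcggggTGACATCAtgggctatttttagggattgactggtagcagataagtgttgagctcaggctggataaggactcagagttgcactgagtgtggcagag
Fos: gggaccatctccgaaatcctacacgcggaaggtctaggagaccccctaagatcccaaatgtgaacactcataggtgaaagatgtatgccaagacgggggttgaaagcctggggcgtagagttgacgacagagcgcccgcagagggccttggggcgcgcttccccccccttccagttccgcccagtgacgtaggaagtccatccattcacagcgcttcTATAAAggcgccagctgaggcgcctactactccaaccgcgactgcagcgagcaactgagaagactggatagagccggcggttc
Junb: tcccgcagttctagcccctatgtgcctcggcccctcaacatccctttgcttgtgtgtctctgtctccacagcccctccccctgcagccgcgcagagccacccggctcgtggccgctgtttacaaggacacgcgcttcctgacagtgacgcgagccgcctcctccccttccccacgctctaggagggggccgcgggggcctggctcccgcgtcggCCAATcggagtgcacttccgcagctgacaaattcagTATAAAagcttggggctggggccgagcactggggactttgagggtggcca
Egr2: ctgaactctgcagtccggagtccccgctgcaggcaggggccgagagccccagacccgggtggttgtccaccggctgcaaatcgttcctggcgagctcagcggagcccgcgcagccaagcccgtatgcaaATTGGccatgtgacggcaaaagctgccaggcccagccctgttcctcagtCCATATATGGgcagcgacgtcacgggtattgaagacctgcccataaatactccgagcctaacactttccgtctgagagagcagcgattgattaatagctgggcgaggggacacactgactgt

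In the Jun window the capitals mark a CCAAT box, at -65, and the variant AP-1 site TGACATCA, at -45, counted from the start site as 1. That AP-1 site is known in the Jun gene as the element through which JUN protein acts on its own promoter. Of all 32851 mouse promoter windows of this length, 3.62% hold TGACATCA on either strand. The Fos window holds a TATA box (TATAAA) at -33, and the serum response element for which Fos is known lies farther upstream than this window. The Junb window holds a CCAAT box at -36 and a TATAAA whose first base is at position 1 of the RefSeq start. The Egr2 window holds a CCAAT box on the minus strand, at -121, and the core of a serum response element (the CArG box) at -72. Such a core was found in 4 of the 5 Egr2 windows, 3 of which overlap and hold the same site, so that these are 2 distinct sites, and in 1.63% of all windows. An EGR site (GCGNGGGCG) was found in the Fosb window, at -50, and the Fosl2 window, at -79, against 5.55% of all windows. The Atf3 window held a CCAAT box at 6 on the minus strand, and the Jund window, which lies upstream of the GENCODE start of the gene, held none of the 8 motifs. The remaining motifs, with both strands searched, were the CRE site TGACGTCA (1.79% of windows), the TRE site TGACTCA (5.2%) and the STAT-type site TTCNNNGAA (8.3%). None of these patterns was in a member's window. Other variants of the sites, such as a CRE that differs by a base, were not searched and would stand unmarked. CCAAT stood in 37.4% and TATAAA in 13.6% of all windows. CCAAT was in windows of members that fell (Jun and Atf3) and of members that rose (Junb and Egr2). TATAAA was in those of Fos, which fell, and Junb, which rose. None of the marked motifs overlaps another, and a match describes letters only. Whether the motifs had a part in the changes was not tested.

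With EV treatment the 3 EGR genes and the JUN partners Junb and Jund rose, while Fos, Jun and Atf3 fell. The largest changes were a 5.54-fold rise of Egr3 and falls of 5.07-fold in Jun and 4.19-fold in Atf3. Fosb and Fosl2 did not pass the test. A gene was called where the quasi-likelihood test of edgeR gave an adjusted p below 0.01. By that rule 5 of the 10 members were higher and 3 lower, against 12.1% and 11.6% of all genes tested. With a change of at least 1 on the log2 scale as well, 3 were higher (Egr1, Egr2 and Egr3), against 3.1% of all genes, and 2 were lower (Jun and Atf3), against 6.35%. The 3 values of each group did not overlap for 9 members, 6 of them higher in the EV-treated cultures, against 24.8% of all genes, and 3 lower, against 24.7%. The median log2 fold change of the 10 members was 0.47, and that of all genes tested was -0.01. The genes were chosen with earlier results of these data known, and these counts describe them without a test of the list.

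**Figure D1:**
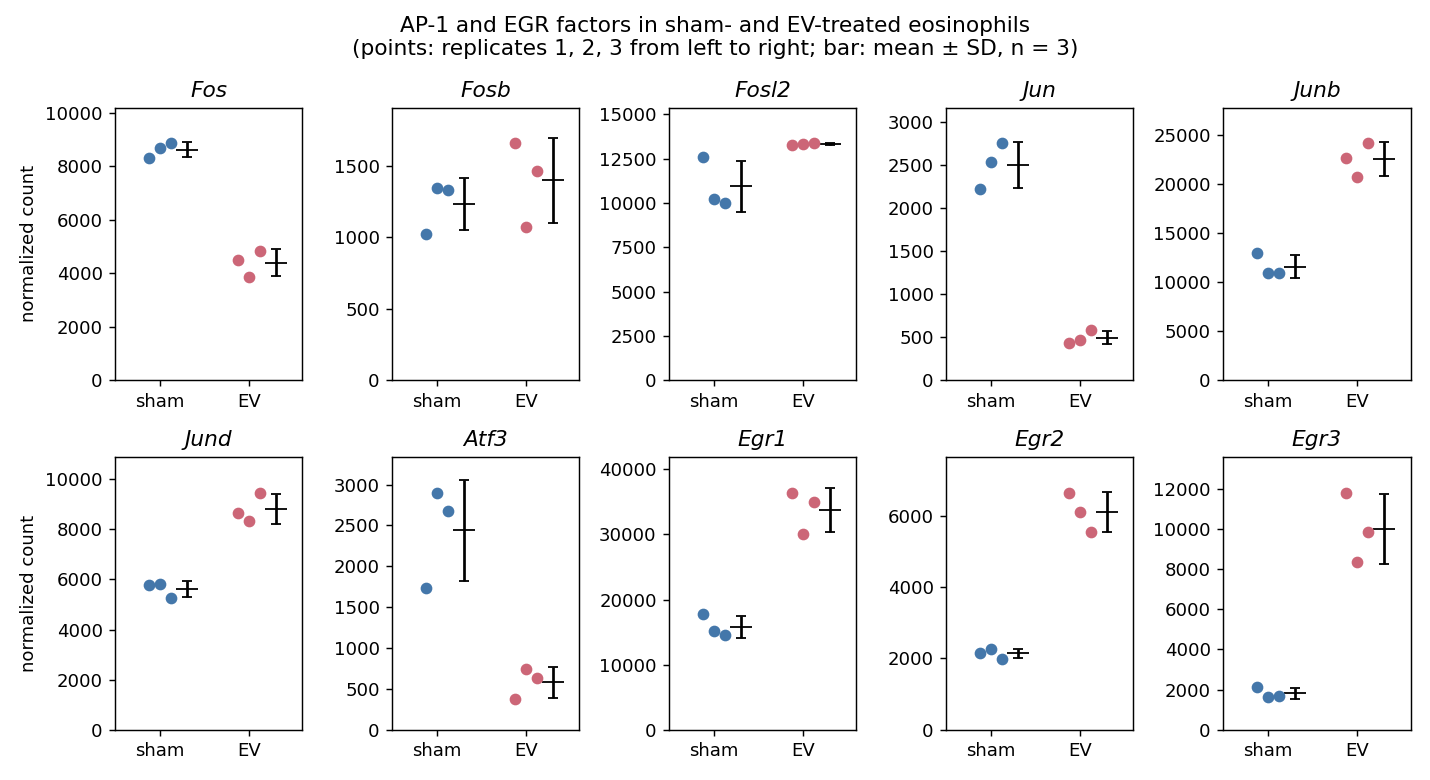
Normalized counts (vertical axes, each starting at 0) of the 10 AP-1 and EGR factors in sham-treated and EV-treated eosinophils at 24 h. Each point is a library, in the order of replicates 1, 2 and 3, and bars give the mean ± SD of 3 libraries. Groups stand apart for every gene but Fosb, with the EV-treated points below the sham-treated points for Fos, Jun and Atf3.

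The EGR genes were the members that rose most. Egr3, which is known in lymphocytes as an inducer of negative regulators of antigen receptor signaling, had normalized counts of 2118, 1629 and 1665 in sham replicates 1 to 3 and of 11816, 8359 and 9854 in EV replicates 1 to 3. The lowest EV-treated value was well above the highest sham-treated one. The means were 1804 ± 273 and 10009.6 ± 1734 (SD, n = 3 each), a log2 fold change of 2.47 ± 0.139 (SE) with an adjusted p of 8.5e-07. Ordered by size among the 13498 genes, Egr3 had the rise of rank 143. A normalized count here is the rounded count of a library after scaling for depth and composition, so that it compares libraries for a gene but not genes with each other.

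Egr2, which takes part in restraining T-cell activation and in myeloid differentiation, had normalized counts of 2165, 2266 and 1989 in the sham-treated cultures and of 6662, 6116 and 5542 in the EV-treated cultures. The groups again did not overlap, and each was narrow, with coefficients of variation of 6.55% and 9.17%. The means were 2140 ± 140.2 and 6107 ± 560.03 (SD, n = 3 each), and the log2 fold change was 1.51 ± 0.0832 (SE), with an adjusted p of 7.64e-07.

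Egr1, the family's prototype and a direct target of ERK signaling through serum response elements, rose least of the 3. Its normalized counts were 17702, 15094 and 14476 in the sham-treated cultures and 36434, 29990 and 34967 in the EV-treated cultures, with no overlap. The log2 fold change was 1.10 ± 0.092 (SE), or 2.14-fold, with an adjusted p of 1.06e-05. Sham replicate 1 was the highest of its group for both Egr1 and Egr3, and EV replicate 1 the highest of its group. Leaving out any one library kept each of the 3 EGR genes past the threshold, with log2 fold changes between 1.05 and 1.20 for Egr1, 1.45 and 1.58 for Egr2 and 2.34 and 2.61 for Egr3.

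**Figure D2:**
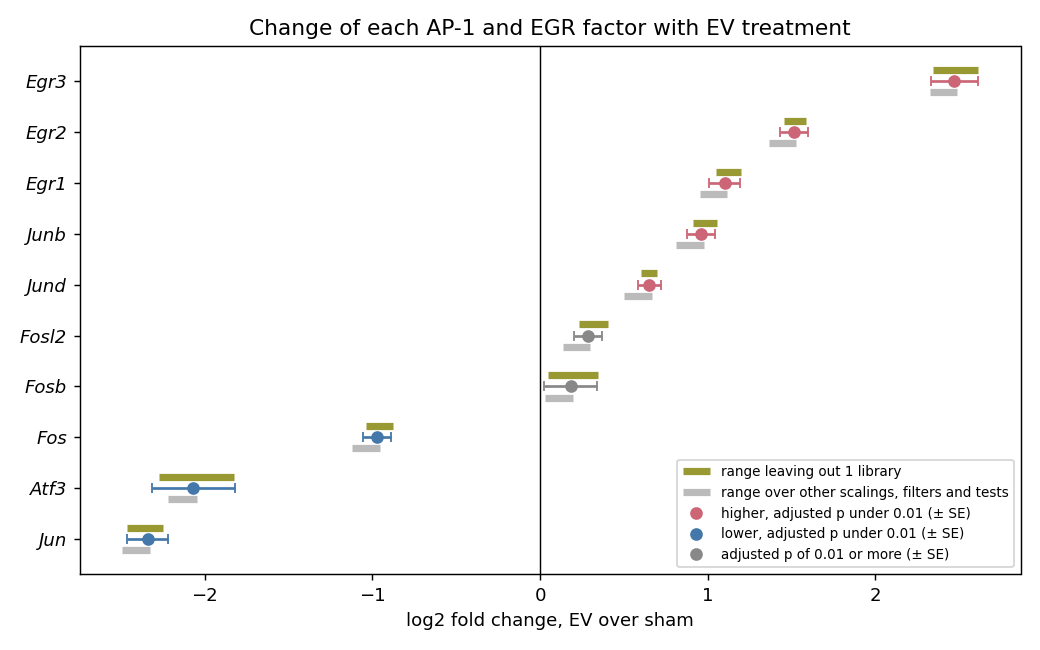
Log2 fold change of EV-treated over sham-treated eosinophils for each AP-1 and EGR factor (points, ± SE), with the range when 1 library is left out (upper bars) and over other scalings, filters and tests (lower bars). Egr3, Egr2 and Egr1 lie furthest to the right, at 2.47, 1.51 and 1.10, and Jun and Atf3 furthest to the left, at -2.34 and -2.07.

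Among the JUN genes, Jun went the opposite way from Junb and Jund. Jun, the strongest transcriptional activator of the family, had normalized counts of 2220.1, 2539 and 2756 in the sham-treated and of 434, 467 and 579.7 in the EV-treated cultures. Every EV-treated culture was far below every sham-treated one. The means were 2505 ± 269 and 493 ± 76.5 (SD, n = 3 each), a log2 fold change of -2.34 ± 0.123 (SE) with an adjusted p of 6.04e-07, and a fall of rank 518 among all genes tested.

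Junb, which is induced like Jun but activates many AP-1 sites more weakly and can oppose it, rose 1.95-fold. Its normalized counts were 12949.6, 10929 and 10909 in the sham-treated and 22687, 20796 and 24208 in the EV-treated cultures, without overlap, and the log2 fold change was 0.96 ± 0.0823 (SE; adjusted p = 1.22e-05). Jund, which most cells express without stimulation, had normalized counts of 5762, 5819 and 5248 in the sham-treated cultures and of 8639, 8324 and 9473 in the EV-treated cultures. It rose by less than Junb, with a log2 fold change of 0.65 ± 0.0694 (SE; adjusted p = 5.32e-05). Neither gene reached a change of 1 on the log2 scale.

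Each JUN gene has a transcript annotated on the opposite strand, and how the counting treated strand is not given in the sources used here. In GENCODE vM21, 6.39% of the 31-base words of Jun transcripts are also found, reversed, in Junos, 6.51% of those of Junb in Prdx2, and 50.1% of those of Jund in Gm11175. Prdx2, an antioxidant enzyme gene, fell by 1.09 on the log2 scale (adjusted p = 8.27e-05), the opposite direction from Junb. Junos and Gm11175 were not analysed here. For Jund above all, reads from the antisense transcript cannot be told apart from its own without strand. On the same strand, at most 0.523% of the words of any member were found in another gene, which was for Egr3 with Egr2 and Egr4.

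Of the FOS genes, Fos fell, and Fosb and Fosl2 did not pass the test. Fos, the classical immediate early partner of JUN, had normalized counts of 8304, 8688 and 8863 in the sham-treated and of 4512, 3845 and 4831 in the EV-treated cultures. The sham-treated cultures differed little among themselves (coefficient of variation 3.32%), and all 3 lay above the EV-treated cultures. The log2 fold change was -0.97 ± 0.0831 (SE), a 1.96-fold fall, with an adjusted p of 1.21e-05. Leaving out any one library gave between -1.04 and -0.88.

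Fosl2, which encodes the FOS family member FRA2 that persists late after stimulation, had normalized counts of 12588, 10211 and 10016 in the sham-treated cultures and of 13287, 13310.3 and 13380.3 in the EV-treated cultures. The groups did not overlap, but sham replicate 1 lay close to the EV-treated cultures, which were nearly identical (coefficient of variation 0.364%). The log2 fold change was 0.28 ± 0.0836 (SE) and the adjusted p 0.0237, which did not pass. Without sham replicate 1 the log2 fold change was 0.40 and the adjusted p 0.000126, so the call depends on that library. It also passed with DESeq2 (adjusted p = 0.00263).

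Fosb, which like Fos is induced transiently, had normalized counts of 1024, 1342 and 1330.5 in the sham-treated and of 1656, 1072 and 1459.6 in the EV-treated cultures, which overlapped. Its log2 fold change was 0.18 ± 0.158 (SE), with an adjusted p of 0.417.

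Atf3, a stress-induced factor that pairs with JUN proteins and restrains inflammatory genes in myeloid cells, had normalized counts of 1739.9, 2902 and 2676 in the sham-treated cultures and of 371, 739 and 628 in the EV-treated cultures. The groups did not overlap, though Atf3 varied most of all members within each group, with coefficients of variation of 25.3% and 32.6%. In both groups replicate 1 was the lowest. The log2 fold change was -2.07 ± 0.247 (SE), with an adjusted p of 0.000114, and it stayed past the threshold without any one library, between -2.28 and -1.83.

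Levels of different genes were compared as normalized counts per kilobase of the longest coding transcript in GENCODE vM21. In the sham-treated cultures Junb led with 6410.1 ± 648 (SD, n = 3), followed by Fos with 4088 ± 136, Egr1 with 3514 ± 382 and Jund with 3363 ± 189. Within that order the values of Egr1 overlapped those of both its neighbours. Fosl2 (1673 ± 219), Atf3 (1229 ± 311), Jun (786 ± 84.5) and Egr2 (722 ± 47.3) came next, with Jun and Egr2 overlapping, and Egr3 (458 ± 69.3) and Fosb (326 ± 47.8) were lowest.

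In the EV-treated cultures the order of levels per kilobase was led by Junb with 12473 ± 945 (SD, n = 3), Egr1 with 7537 ± 753 and Jund with 5283 ± 356, which did not overlap. A middle group followed in which Egr3 (2541 ± 440.03) overlapped Fos (2085 ± 239) and Egr2 (2060 ± 189), and both of these overlapped Fosl2 (2039 ± 7.41). Fosb (369 ± 78.6) and Atf3 (292 ± 95.2) overlapped each other, and Jun (155 ± 24.0) was lowest, without overlap. Jun thus stood above Egr2, Egr3 and Fosb in the mean levels of the sham-treated cultures and below all of them in the EV-treated cultures.

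Shares within a family do not depend on how libraries are scaled to each other. Of the FOS counts per kilobase, Fos made up 64.2%, 68.3% and 69.1% in sham replicates 1 to 3 and 46.4%, 44.0% and 48.5% in EV replicates 1 to 3. Fosl2 took most of the difference, with a mean share of 27.5% ± 3.41 in the sham-treated and 45.5% ± 3.16 in the EV-treated cultures (SD, n = 3 each). A share can also rise because another gene of the family falls. The mean level per kilobase of Fos went from 4088 to 2085, and that of Fosl2, which was not called, from 1673 to 2039. Of the JUN counts per kilobase, Jun made up 7.49% ± 1.24 in the sham-treated and 0.862% ± 0.0930 in the EV-treated cultures. The share of Junb was 60.6% ± 2.44 and 69.6% ± 0.564, and that of Jund 31.9% ± 1.69 and 29.5% ± 0.499.

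Of the EGR counts per kilobase, Egr3 made up 9.73% ± 0.607 in the sham-treated and 20.8% ± 1.48 in the EV-treated cultures (SD, n = 3 each), and Egr1 74.8% ± 0.812 and 62.1% ± 1.74. Egr2 kept overlapping shares, 15.4% ± 1.41 and 17.0% ± 1.82. On the per-kilobase scale the shares of all the other FOS, JUN and EGR genes did not overlap between the groups. As shares of family counts without regard to length, those of Fosb (4.67% to 6.63% and 5.88% to 8.51%) and Jund (27.5% to 30.2% and 27.2% to 28.1%) overlapped as well. With 3 cultures a group, an exact permutation test of a share cannot go below a two-sided p of 0.1, and none was run. The summed levels per kilobase of the 3 FOS genes were 6087 ± 48.6 and 4493 ± 308, of the 3 JUN genes 10559 ± 665 and 17910.5 ± 1306, and of the 3 EGR genes 4694 ± 466 and 12137 ± 1249.

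**Figure D3:**
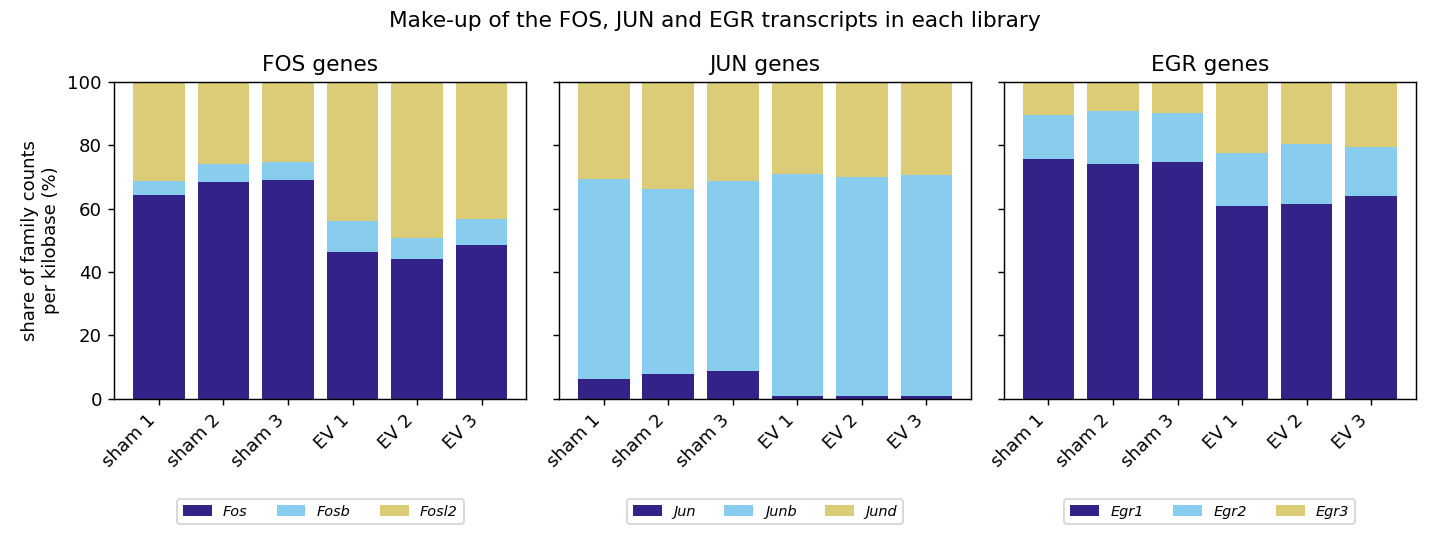
Share (%) of each gene in the counts per kilobase of its family, in each of the 6 libraries. The Fos share falls from a mean of 67.2% in sham-treated to 46.3% in EV-treated cultures, Jun shrinks from 7.49% to 0.862%, and the Egr3 share grows from 9.73% to 20.8%.

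The other AP-1 and MAF basic leucine zipper genes moved in both directions. Of 11 tested, 2 were called higher, 3 lower and 6 were not called, with a median log2 fold change of 0.03. Over all genes tested, 12.1% were called higher and 11.6% lower, and the counts of this and the following lists stand beside these shares. Batf3, a JUN-binding factor known from dendritic cell development, was higher from a low level (26.1 ± 13.6 to 95.1 ± 18.9 normalized counts, log2 fold change 1.87, adjusted p = 0.00761). Atf2, a MAP kinase-activated JUN partner, was higher by 0.36 on the log2 scale (adjusted p = 0.0067). Without any one of the 6 libraries, at most 1 of these genes was still called higher. Among those called lower were Maf, a factor of macrophage differentiation (-1.26, adjusted p = 8.32e-05), and Jdp2, an AP-1 repressor (-0.44, adjusted p = 0.00181). Jdp2 lost its call without EV replicate 1 (adjusted p = 0.0113) or EV replicate 3 (adjusted p = 0.0143). Neither Fosl1, the remaining FOS gene, at 0.81 (adjusted p = 0.0415), nor Batf, at 0.48 (adjusted p = 0.024), was past the threshold.

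Nab2, a corepressor that binds EGR proteins and is itself an EGR target, fell while the EGR genes rose. Its normalized counts went from 1151 ± 145 in the sham-treated to 645 ± 52.3 in the EV-treated cultures (SD, n = 3 each; log2 fold change -0.83, adjusted p = 0.000273). Nab1, the related corepressor, stood at 0.10 (adjusted p = 0.356), and Egr4 was not analysed here. Of the 5 EGR partners and corepressors tested, edgeR called 1 lower and 0 higher. At an unadjusted p under 0.05, 2 had a positive log2 fold change, DESeq2 called 2 higher, and edgeR did so without sham replicate 1.

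Most of the other immediate early genes tested were called higher. Of 27, 15 were called higher (55.6%), 6 lower (22.2%) and 6 were not called, against 12.1% higher and 11.6% lower of all genes tested. The median log2 fold change was 0.66. At an unadjusted p under 0.05 in edgeR, 16 had a positive and 9 a negative log2 fold change. The largest increases were those of Ier3, a survival factor induced by ERK (2.27, adjusted p = 4.85e-08), Klf2, a zinc finger factor of leukocyte quiescence (2.14, adjusted p = 3.72e-06), and Nfil3, a basic leucine zipper factor (1.51, adjusted p = 5.79e-06). Ier2 (0.88, adjusted p = 3.76e-05), Dusp1 (1.25, adjusted p = 9.71e-07) and Zfp36, which destabilizes AU-rich mRNAs (0.71, adjusted p = 1.17e-05), were also higher. Ccn1, a matricellular protein gene (-2.97, adjusted p = 0.00808), Sgk1, a kinase gene (-1.03, adjusted p = 0.000283), and Cebpd (-0.88, adjusted p = 0.00022) had the largest decreases. Ccn1, a low gene, lost its call without any one of sham replicates 1 and 3 and EV replicates 2 and 3 (adjusted p = 0.0259 to 0.0404). Within the groups, Ccn1 was lowest in sham replicate 2 and highest in EV replicate 1. So were the stromal markers Col1a1, Col1a2, Col3a1 and Lum, while Pdgfrb and Dcn were lowest in sham replicate 3. Whether stromal cells had a part in the values of Ccn1 was not tested. Nr4a1, an orphan nuclear receptor gene, was not called, at 0.14 (adjusted p = 0.388).

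Among the proteins that switch on the genes of these factors are SRF, its partners and CREB. Of 12 SRF, ternary complex factor and CREB regulators, 2 were called higher, 1 lower and 9 were not called, with a median log2 fold change of 0.11. The shares of 16.7% higher and 8.33% lower were near those of all genes tested, 12.1% and 11.6%. Mrtfa, an SRF coactivator, was higher by 0.40 (adjusted p = 0.00243) and Crtc1, a CREB coactivator, by 0.39 (adjusted p = 0.00936), while Elk3, a ternary complex factor, fell by 0.80 on the log2 scale (adjusted p = 0.00444). Leaving out any one library other than sham replicate 1 left at most 1 of these called higher, and leaving out any one other than sham replicate 1 left 0 called lower in edgeR, where 3 had a negative log2 fold change at an unadjusted p under 0.05 with all libraries. Srf, at 0.34 (adjusted p = 0.0115), and Creb1, at -0.03 (adjusted p = 0.812), were not called.

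Of 31 genes of the MAP kinase cascade, 10 were called higher, 4 lower and 17 were not called, with a median log2 fold change of 0.12. Mapk13, a p38 kinase (1.26, adjusted p = 5.84e-05), Map2k4, a kinase upstream of JNK (1.04, adjusted p = 1.29e-06), and Map3k14, the NF-kB-inducing kinase (0.92, adjusted p = 0.000492), rose most. Map3k1 (-0.82, adjusted p = 7.63e-06), Rps6ka2 (-0.59, adjusted p = 0.000304) and Braf (-0.45, adjusted p = 0.000339) fell most. Mapk3, which encodes an ERK kinase, was not called, at 0.03 (adjusted p = 0.794). Of 13 feedback inhibitors of MAP kinases, 4 were called higher and 2 lower, with Dusp6 (1.28, adjusted p = 7.02e-07), Dusp1 and Dusp5 (1.00, adjusted p = 1.82e-05) rising most and Dusp2 (-2.38, adjusted p = 0.000141) and Dusp4 (-2.26, adjusted p = 8.36e-05) falling. Their median log2 fold change was -0.21. Dusp1 stands in this list and in that of the immediate early genes.

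Among 14 genes of AU-rich mRNA turnover, which sets the lifetime of immediate early mRNAs, 2 were called higher, Zfp36 and Cnot6 (0.64, adjusted p = 0.00011), and 1 lower, Cnot8 (-0.47, adjusted p = 0.0034), with a median log2 fold change of 0.05. The shares of 14.3% higher and 7.14% lower were near those of all genes tested, 12.1% and 11.6%. The call of Cnot8 was lost without any one of the EV replicates, which left 0 called lower in edgeR, where 3 had a negative log2 fold change at an unadjusted p under 0.05 with all libraries. Of 20 textbook targets of AP-1 or EGR factors, 7 were called higher and 8 lower (5 lower without EV replicate 3), with a median log2 fold change of -0.24. Cd69, an early activation receptor, rose by 3.45 on the log2 scale (adjusted p = 6.6e-09), the cytokine gene Il6 by 3.07 (adjusted p = 1.6e-06) and Ptgs2, the inducible cyclooxygenase, by 2.25 (adjusted p = 4.31e-06). Plau, the urokinase gene (-2.20, adjusted p = 4.4e-05), Ccnd1, cyclin D1 (-1.93, adjusted p = 3.16e-05), and Spp1, osteopontin (-1.49, adjusted p = 4.27e-05), fell most. Nab2 is also in this list.

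Immediate early genes can be induced by handling, and heat shock and stress genes were read beside them. Of 11 tested, 2 were called higher, Dnaja1 (0.57, adjusted p = 0.00011) and Dnajb1 (0.32, adjusted p = 0.00669), and 3 lower, Hspe1 (-0.71, adjusted p = 0.00848), Bag3 (-0.70, adjusted p = 0.000471) and Hspa8 (-0.26, adjusted p = 0.00421). Their median log2 fold change was -0.26. At an unadjusted p under 0.05 in edgeR, 7 had a negative and 2 a positive log2 fold change. Hspa1a (-2.49, adjusted p = 0.0287) and Hspa1b (-1.98, adjusted p = 0.0337), both low genes, had larger falls but were not called. Leaving out sham replicate 3 or any one EV replicate left 1 called higher and 1 called lower.

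**Figure D4:**
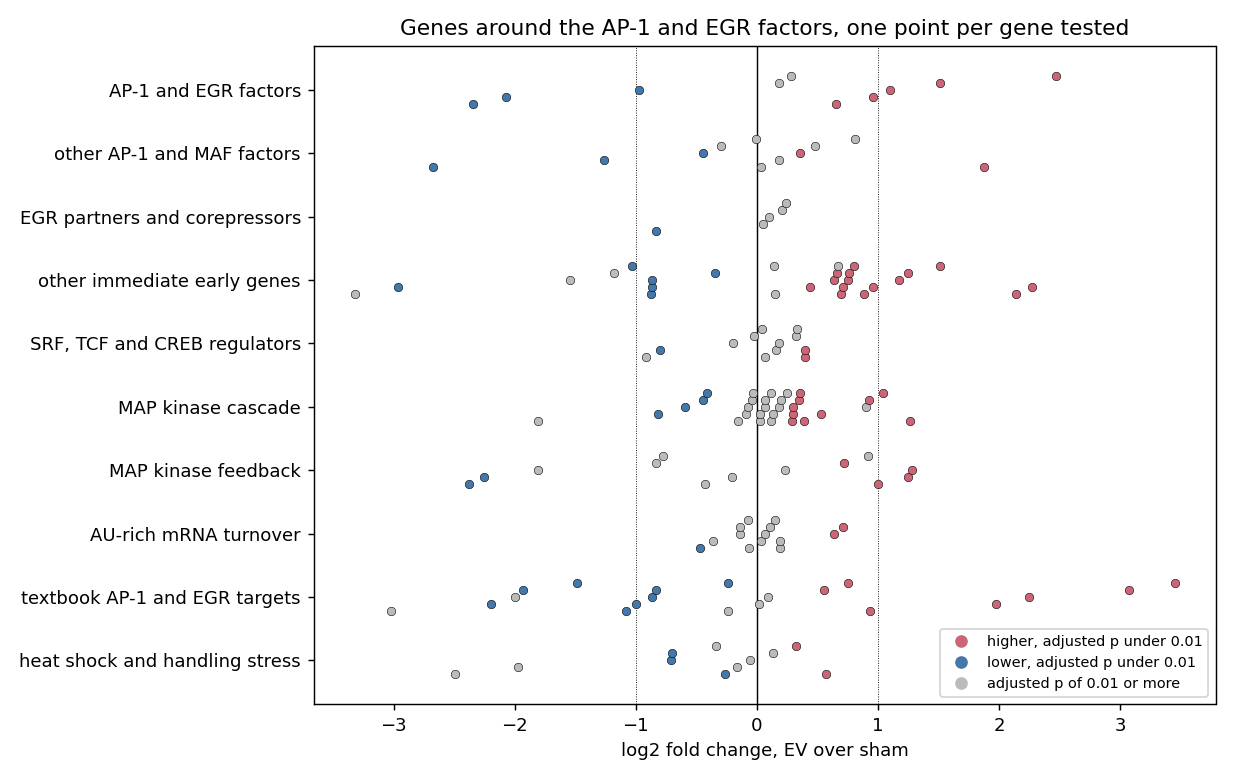
Log2 fold change of EV-treated over sham-treated eosinophils for each gene tested in the lists of AP-1 and EGR factors and of the genes around them. Filled colours mark an adjusted p under 0.01 in edgeR, grey points an adjusted p of 0.01 or more, and dotted lines a change of 1 on the log2 scale. Of the other immediate early genes, 15 of 27 are marked higher and 6 lower, against 12.1% and 11.6% of all genes tested.

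Macrophage genes fell alongside Jun and Atf3. Of 11 macrophage and monocyte markers tested, 7 were called lower and 2 higher, the latter being Adgre1 (log2 fold change 0.62) and Ly6c2 (1.34), which eosinophils can also express. Their summed level was 1650.1 to 2026 CPM (counts per 1e+06 counts of the library) in the sham-treated and 2169 to 2359.95 CPM in the EV-treated cultures. In the EV-treated cultures the sum lay mostly in Adgre1 and Ly6c2. Their mean normalized counts went from 21326 to 32764 and from 10910 to 27641, so the sum does not follow the 7 markers called lower. The complement genes C1qa, C1qb and C1qc had log2 fold changes of -2.58, -2.48 and -2.56, Mertk, a receptor for apoptotic cells, of -2.85, and Csf1r, the M-CSF receptor, of -1.31. Cx3cr1 had 0 counts in all 3 EV-treated cultures and 101 to 221 normalized counts in the sham-treated cultures. Mertk had normalized counts of 770.4, 1586 and 1394 in the sham-treated and of 87.9, 199.7 and 228 in the EV-treated cultures. Replicate 1 was thus the lowest of both groups for Mertk, as it was for Atf3, Jun, Csf1r, C1qa, C1qb and C1qc. Over all genes, sham replicate 1 was also the sham library closest to the EV-treated cultures. It was the lowest sham library for other genes that fell, such as Maf, Plau and Ccnd1, but not for Jdp2 and Cebpd. Replicate numbers were not taken as pairs, and what the shared order means was not tested.

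For Fos the lowest library was sham replicate 1 but EV replicate 2. Whether macrophages in the cultures had a part in the values of Jun, Atf3 and Maf was not tested, and in bulk RNA fewer cells of a type and less RNA per cell cannot be told apart. The eosinophil markers were abundant in every library, with a summed level of 30539 to 38468.5 CPM in the sham-treated and 43565 to 48669.8 CPM in the EV-treated cultures, and 8 of 12 were called higher, among them Siglecf (0.85) and Ccr3 (1.13). Mast cell and basophil markers summed to 133 to 169.6 CPM and to 321 to 379.6 CPM, with 4 of 6 tested called higher. Neutrophil markers summed to 719.7 to 841 CPM and to 660.2 to 787 CPM, while 5 of 10 tested were called lower, among them Camp (-2.02) and S100a8 (-1.18), and 2 higher, Ly6g (2.65) and Cxcr2 (1.87). Stromal markers summed to 364 to 691 CPM and to 55.3 to 247 CPM, with 1 of 4 tested called lower. T cell markers summed to at most 30.4 CPM, with 1 of 3 tested called lower, and dendritic cell markers, of which 4 were tested and not called, to at most 4.94 CPM in any library.

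**Figure D5:**
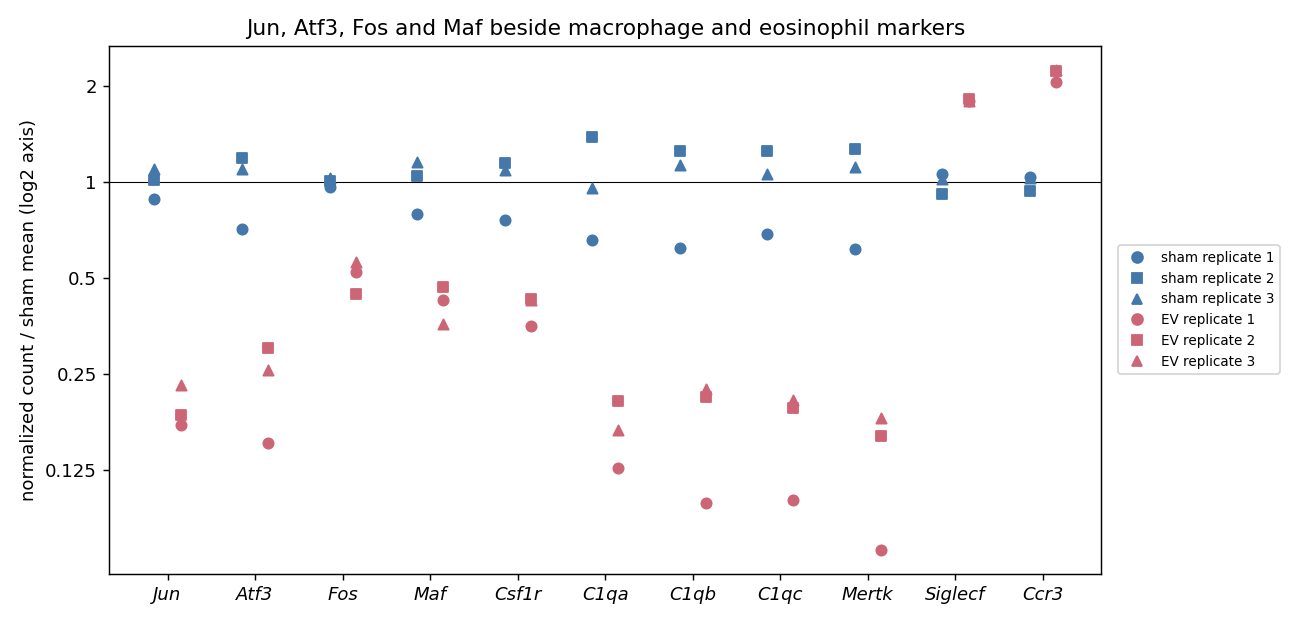
Normalized counts of Jun, Atf3 and Fos, of Maf, of the macrophage genes Csf1r, C1qa, C1qb, C1qc and Mertk and of the eosinophil genes Siglecf and Ccr3 in each library, divided by the mean of the sham-treated cultures (log2 axis). Circles, squares and triangles are replicates 1, 2 and 3. In both groups the circles are lowest for Jun, Atf3 and the macrophage genes shown. For Maf the lowest EV-treated library is replicate 3. The macrophage genes shown were picked among those called lower. Adgre1 and Ly6c2, called higher and lowest among sham libraries in replicate 2, are not shown. Siglecf and Ccr3 lie above 1 in the 3 EV-treated libraries.

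Likeness to a member over the 6 libraries was measured as the mean absolute difference in centred log2 CPM among 10453 genes. Nearest to Junb were Sesn2 (0.0378), E2f2 (0.039) and Aacs (0.041), nearest to Egr1 were Runx1 (0.0454), Rhoh (0.0541) and Cbfa2t3 (0.0604), and nearest to Fos were Gaa (0.0579), Cul7 (0.0621) and Cdt1 (0.0691). Because the measure spans both groups, it selects genes with log2 fold changes near those of the members, such as 1.07 for Runx1 beside 1.10 for Egr1.

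The libraries held 23697620 to 37874426 estimated counts, so that for most of these genes counting error was small beside the spread between cultures. An exception was Fosl2 in the EV-treated cultures. Its coefficient of variation of 0.364% is below what counting error alone would give on average. By the median absolute log2 difference from the mean of the EV-treated libraries, sham replicate 1 (0.309) was closer to the EV-treated cultures than sham replicates 2 (0.376) and 3 (0.345). Without it, 6 members were called higher and 3 lower, the added call being Fosl2. Scaling by library totals alone, in place of TMM, moved the median of all genes by -0.15 on the log2 scale and the share of called genes that were higher from 50.9% to 30.7%. The directions of all 10 members and the calls of 5 higher and 3 lower were the same under that scaling, with log2 fold changes of 0.81 for Junb, 0.50 for Jund and 0.95 for Egr1. The labels name the libraries of a group as biological replicates, without saying whether they came from separate mice, so that p-values measure the spread between these cultures, which may be technical. The genes lie on GRCm38 (GENCODE vM21) at chr12:85473890-85477273 (Fos), chr7:19302696-19310051 (Fosb), chr5:32135801-32157842 (Fosl2), chr4:95049034-95052222 (Jun), chr8:84974484-84978718 (Junb), chr8:70698949-70700616 (Jund), chr1:191170296-191218039 (Atf3), chr18:34859823-34864984 (Egr1), chr10:67535475-67542188 (Egr2) and chr14:70077203-70082614 (Egr3).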

How the data were processed

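Poly(A) RNA from 3 EV-treated and 3 sham-treated eosinophil cultures was sequenced, and groups and replicate numbers were taken from the sample labels. The authors trimmed reads with Cutadapt, checked them with FastQC, quantified them with Salmon and compared groups with DESeq2. The labels name mm10, and versions, annotation and strandedness are not given in the sources used here. The authors deposited estimated counts per gene, of which 31.4% to 48.4% per library are not whole numbers. The normalized counts deposited by the authors, a signal that is never negative, equal the rounded count plus 1 divided by a size factor and served one alternative. The authors' table of fold changes and p-values was not used.

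Estimated counts were rounded and tested with edgeR 4.0.16 in R 4.3.3 (TMM, filterByExpr, quasi-likelihood test, Benjamini-Hochberg adjustment over 13498 genes), with a call at an adjusted p under 0.01. Standard errors were obtained by dividing each log2 fold change by the root of its F statistic. Scripts were tested on simulated counts. Alternatives used other scalings, no filter, DESeq2 1.42.0, limma 3.58.1, a threshold of 0.05, the replicate block and each library left out. The replicate libraries differed by more than counting noise (chi-square per gene 8.37 to 31.8), so each was counted once.

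The members and lists were chosen with earlier results of these data known. Named were all 10 members, a set of related genes whatever their values, and of each list the 3 genes with the largest rise and the 3 with the largest fall among those called. In addition, the 3 nearest profiles of Fos, Junb and Egr1 were named among genes with a mean normalized count over 100, and each marker list was given by its sum. Values of a few genes that this rule would name are left out. Single markers, Prdx2 and the genes of the plot of markers were named after their values were seen. Gene positions and shared 31-base words come from GENCODE vM21 on GRCm38, and start-site windows from RefSeq.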

Additional observations from a re-analysis of the deposited data

How the results depend on the processing

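Over the alternatives to the test of the 10 members, 146 of 150 fold changes kept their direction and their side of the threshold, and the other 4 were those in which Fosl2 passed. Fosl2 had log2 fold changes of 0.29 with DESeq2, 0.29 with the replicate block and 0.28 at a threshold of 0.05, and between 0.23 and 0.40 with 1 library left out. Of 735 values of the other named genes, 664 were unchanged in this sense, 64 no longer passed, 7 newly passed and none of these fits reversed a direction. The cause was not tested. Over all genes, library totals gave 1036 higher and 2342 lower, a threshold of 0.05 gave 2362 and 2478, and leaving out 1 library gave 1071 to 1833 higher and 1018 to 1698 lower.

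With library totals alone, the counts were 0 higher for the other AP-1 genes, 0 higher and 2 lower for the SRF and CREB regulators, 4 higher for the MAP kinase cascade, 3 lower for AU-rich turnover, and 1 higher and 5 lower for heat shock. With upper quartile scaling they were 1 higher for the other AP-1 genes, 1 higher for the SRF and CREB regulators, and 1 higher and 5 lower for heat shock. DESeq2 gave 2 higher for the EGR partners and 6 lower for heat shock. A threshold of 0.05 gave 5 higher for the other AP-1 genes, 2 higher for the EGR partners, 5 higher and 3 lower for the SRF and CREB regulators, and 7 lower for heat shock. With 1 library left out, the ranges were 0 to 1 higher for the other AP-1 genes, 0 to 2 higher for the EGR partners, 0 to 2 higher for the SRF and CREB regulators, 0 to 1 lower for the SRF and CREB regulators, 0 to 1 lower for AU-rich turnover, 5 to 8 lower for the target genes, 1 to 2 higher for heat shock and 1 to 4 lower for heat shock.

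Replicate numbers were not taken as pairs, since deviations of same-numbered samples correlated at 0.117, 0.0846 and 0.0371 over genes and the labels name no shared animal, although 5 of the 6 samples correlated best with their own number (EV replicate 3 was closer to sham replicate 2, at 0.0487). The replicate block gave 1794 higher and 1781 lower genes, 6 members higher and 3 lower, and 1 higher for heat shock. Depth limits the low genes, such as Batf3 and Ccn1, more than the members. One library per culture and 3 cultures a group limit all values.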
